A study of Homo sapiens with 2 samples.

Results

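The genes described here have symbols that begin with DDX or DHX, the names given to DEAD and DEAH box proteins, most of them RNA helicases. The rule that picks them uses the gene symbol and no measured value, and takes the protein-coding genes of the hg38 RefSeq gene table whose symbol is DDX or DHX followed by digits and at most 1 letter. The rule found 54 genes, of which 53 lie on chromosomes 1 to 22 and X and were analysed, among 19821 protein-coding genes there. DDX3Y, on chromosome Y, was not analysed here. All data come from wild-type HUDEP-2 cells, an immortalised human erythroid progenitor line grown from cord blood, with 2 biological replicates and no treatment or comparison group. PRO-cap, a nuclear run-on assay that reads nascent RNA from its capped 5' end, gave 26395 called start positions for the line, deposited as 1 list per strand with no replicate named. The score is 0 for all of them, so the depth behind a call is unknown, no spread between replicates can be given, and the absence of a call says only that a gene stayed below a threshold that is not known. Of the erythroid marker genes GATA1, KLF1, HBB, HBD, ALAS2, AHSP, SLC4A1, EPOR and TFRC, 9 of 9 had a called start (95% Wilson interval 70.1 to 100), and of CD3E, CD14, MPO, ALB and CD34, markers of other lineages and of stem cells, 0 of 5 did (Wilson interval 0 to 43.4, or a share of up to 60% when a count of 0 is taken to allow 3). These markers were chosen with earlier results of these data known, so the counts are a description and no independent check.

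DEAD box proteins use ATP to pull short RNA duplexes apart locally and to strip proteins from RNA, while DEAH box proteins move along a single strand in steps. The names come from the amino acids Asp-Glu-Ala-Asp or Asp-Glu-Ala-His in the ATP-binding core. Which of the genes encode either motif was not counted here. Between them they drive almost every step in the life of an RNA: the spliceosome needs several DEAH proteins to change shape, ribosome assembly in the nucleolus uses a large set of both kinds, and others act in export, translation, decay and the sensing of viral RNA. DDX41, a helicase tied to splicing, is also known as a gene in which inherited mutations predispose to myeloid leukaemia.

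The promoters below carry the patterns described in the rest of the text. These are starts shared with a neighbouring gene, starts with an unannotated opposite partner, and starts without a divergent partner. Sequences are from RefSeq (GRCh38.p14, the same build as hg38) and are written 5' to 3' on the strand of the helicase gene. The first group shows whole stretches between a pair of divergent calls, from 5 bases before the partner call to 10 bases after the helicase start, and the capitals mark the base of the partner call and then that of the helicase start.
DDX28 with DUS2 (chr16:68023222-68023288, minus strand): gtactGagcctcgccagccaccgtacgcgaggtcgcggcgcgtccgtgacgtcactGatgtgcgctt
DDX31 with GTF3C4 (chr9:132669974-132670040, minus strand): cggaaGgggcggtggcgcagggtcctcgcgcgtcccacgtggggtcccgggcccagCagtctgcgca
DDX51 with NOC4L (chr12:132144310-132144462, minus strand): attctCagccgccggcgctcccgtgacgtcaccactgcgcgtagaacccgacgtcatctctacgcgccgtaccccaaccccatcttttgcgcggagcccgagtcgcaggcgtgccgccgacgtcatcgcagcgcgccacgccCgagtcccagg
DDX11 with DDX11-AS1 (chr12:31073783-31073870, plus strand): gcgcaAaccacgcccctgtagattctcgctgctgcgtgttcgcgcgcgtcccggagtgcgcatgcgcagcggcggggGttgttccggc
DDX19A with DDX19A-DT (chr16:70346780-70346914, plus strand): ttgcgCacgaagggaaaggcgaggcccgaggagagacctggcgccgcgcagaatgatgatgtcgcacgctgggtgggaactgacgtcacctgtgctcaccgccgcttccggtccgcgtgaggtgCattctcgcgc
DHX30, no gene at the partner (chr3:47803086-47803148, plus strand): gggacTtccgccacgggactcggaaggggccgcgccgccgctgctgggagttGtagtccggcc
DDX55, no gene at the partner (chr12:123602029-123602109, plus strand): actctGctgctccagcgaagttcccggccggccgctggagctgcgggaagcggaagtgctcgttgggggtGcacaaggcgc

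The other promoters have no divergent partner, and here capitals mark the called base and any of the short motifs searched below. DDX41 and DDX60L are shown from 60 bases before the call to 10 after it. For DDX5, DDX3X and DDX19B the 30 bases that end at the call are shown, since these calls lie inside the outer limits of the gene, at an annotated start of a shorter transcript.
DDX41 (chr5:177516952-177517022, minus strand): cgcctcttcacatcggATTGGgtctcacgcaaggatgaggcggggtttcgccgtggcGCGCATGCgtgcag
DDX60L (chr4:168480478-168480548, minus strand): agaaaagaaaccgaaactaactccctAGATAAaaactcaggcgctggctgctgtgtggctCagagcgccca
DDX5, inner start (chr17:64506290-64506319, minus strand): TATAAAagcggctgccggaaagcggccggC
DDX3X, inner start (chrX:41334132-41334161, plus strand): tattagatccgtggccgcgcggtgcgctcC
DDX19B, inner start (chr16:70299158-70299187, plus strand): cgtcactgtggcgcgccgCTTCCggtctgC

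Most helicase genes had a called start. A start was counted when a call lay within 500 bp of an outer end of the gene and pointed into it, and 41 of 53 helicase genes had one (77.4%, 95% Wilson interval 64.5 to 86.5), against 8207 of 19821 protein-coding genes (41.4%). Intervals here and below cover counting error only. The DEAH-named genes had 14 of 16 (87.5%, 64.0 to 96.5) and the DDX-named genes 27 of 37 (73.0%, 57.0 to 84.6), and these intervals overlap. Counting any call of either strand inside the gene or within 500 bp of it, 45 of 53 had one (84.9%, 72.9 to 92.1), against 52.6% of protein-coding genes. The 12 genes without a start were DDX4, DDX19B, DDX24, DDX25, DDX39B, DDX42, DDX50, DDX52, DDX53, DDX60, DHX16 and DHX58.

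The promoter table gave the strand of 48 of the 53 genes, all but DDX18, DDX49, DDX52, DHX33 and DHX58. Among these 48, 38 had the call at the outer 5' end (79.2%, 65.7 to 88.3), against 42.9% of protein-coding genes with a known strand. No helicase gene had an inward call at its 3' end (0 of 48, Wilson interval 0 to 7.41, or a share of up to 6.25% when a count of 0 is taken to allow 3), and 1.33% of protein-coding genes did. The start calls of these genes were therefore on the strand of the gene.

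**Figure D1:**
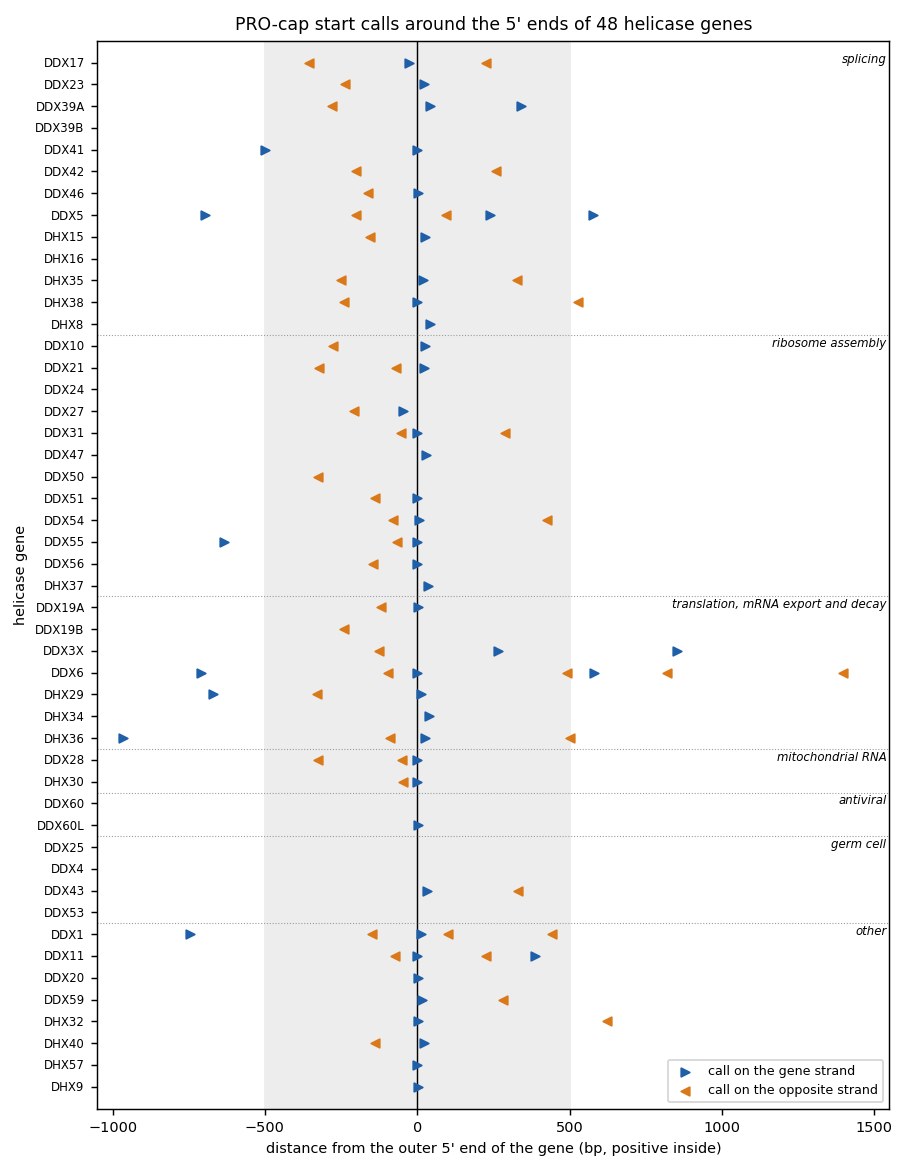
Positions of PRO-cap start calls around the outer 5' ends of the 48 helicase genes with a known strand, in bp, with 1 row per gene grouped by role; blue triangles are calls on the gene's strand, orange ones calls on the opposite strand, and the grey band marks 500 bp on each side. Most blue triangles stand at 0, orange ones cluster to the left of it, and the rows of DDX39B, DHX16, DDX24, DDX60, DDX25, DDX4 and DDX53 are empty.

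Of the 13 genes of splicing, 10 had a start (76.9%, 49.7 to 91.8). The DEAH proteins that remodel the spliceosome at successive steps were mostly called: DHX38, which acts before the second splicing reaction, at position 72093846 of chromosome 16, 1 base outside the gene, DHX8, which releases the spliced mRNA, 41 bp inside at 43484016 of chromosome 17, and DHX15, which takes the spliceosome apart, 24 bp inside at 24584530 of chromosome 4. DHX35, found in spliceosomes, had its call 20 bp inside. DHX16, which prepares the spliceosome for the first reaction, had no call. Among the DEAD proteins of early spliceosome assembly, DDX46 had its call 2 bp inside the gene and DDX23 22 bp inside, while DDX42, also linked to the U2 particle, had none in its own direction. DDX5 and DDX17, close paralogs that act in splicing and as partners of transcription factors, both had a start, that of DDX17 26 bp outside the annotated end and that of DDX5 239 bp inside it. DDX41 had its call 1 base outside the gene. Of the export and splicing factors DDX39A and DDX39B, DDX39A had starts 42 and 341 bp inside the gene and DDX39B had no call.

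Of the 16 genes of ribosome assembly, 13 had a start (81.2%, 57.0 to 93.4). Their calls lay close to the annotated ends. DDX55 and DDX56 were called at the annotated base itself. DDX18, DDX31 and DDX51 were called 1 base outside the gene. DHX33 was called 4 bp inside, DDX54 6 bp, DDX49 20 bp, DDX21 23 bp, DDX10 24 bp, DDX47 29 bp and DHX37 36 bp inside. DDX27 was the only one in this group called further outside, by 47 bp. DDX24, DDX50 and DDX52 had no start. DDX21 and DDX50 are neighbouring paralogs on chromosome 10 that point the same way. DDX21 was called at 68956193, whereas DDX50 had only a reverse call at 68900990, 325 bp upstream of the gene and pointing away from it.

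Of the 7 analysed genes of translation, mRNA export and decay, 6 had a start (85.7%, 48.7 to 97.4). DDX6, which represses mRNAs and promotes their decapping, was called 1 base outside the gene, DHX29, which helps ribosomes scan structured leaders, 11 bp inside, DHX36, which opens G-quadruplexes, 26 bp inside, and DHX34, a factor of nonsense-mediated decay, 40 bp inside. DDX3X, which promotes translation of mRNAs with structured leaders, was called 266 bp inside the gene at 41333574 of chromosome X. The export factors DDX19A and DDX19B are near-identical neighbours on chromosome 16. DDX19A was called 1 bp inside the gene at 70346904. DDX19B had no call at its outer end, but had 1 at 70299187, which is 9420 bp into the gene and 1 bp inside an annotated start of a shorter transcript.

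Both genes of mitochondrial RNA helicases were called at the annotated base itself, DDX28 at 68023232 of chromosome 16 and DHX30 at 47803138 of chromosome 3. Both proteins take part in the assembly of mitochondrial ribosomes. Of the 3 antiviral genes only DDX60L had a start (33.3%, 6.15 to 79.2), 4 bp inside at 168480488 of chromosome 4, while its neighbour and paralog DDX60 and DHX58, which encodes the RIG-I-like receptor LGP2, had none. DDX60 held a single call, at 168318437 and on the opposite strand. Of the 4 germ cell genes DDX43 had a start (25%, 4.56 to 69.9) and DDX4, the germline helicase VASA, DDX25 and DDX53 had no call of either strand. With 3 and 4 genes, these shares were too imprecise to tell apart from those of the other roles.

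The call of DDX43 lay 33 bp inside the gene at 73394861 of chromosome 6. A reverse call 297 bp further on, at 73395158, lay 5 bp inside the upper end of OOEP, a gene named for its expression in oocytes, and pointed into it. The remaining 8 genes, with roles outside these groups, had a start in 8 of 8 cases (67.6 to 100). Among them DHX9, RNA helicase A, was called 4 bp inside the gene, DDX20, a partner of the SMN complex, 1 bp inside, DDX1, a subunit of the tRNA ligase complex, 13 bp inside, and DDX11, a DNA helicase of sister chromatid cohesion, at the annotated base. DHX32 was called 1 bp inside, DDX59 17 bp inside, DHX40 21 bp inside and DHX57 1 base outside the gene.

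**Figure D2:**
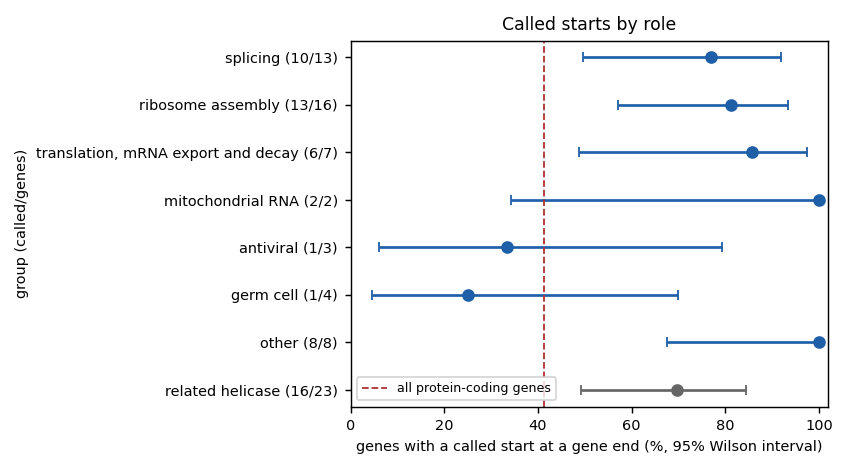
Share of genes with a called start at a gene end, in percent, for the helicase genes by role and for a list of related helicases; points are shares, bars are 95% Wilson intervals, and the dashed line is the share of all protein-coding genes. The 3 groups of splicing, ribosome assembly and translation lie between 76.9% and 85.7%, to the right of the line at 41.4%. The mitochondrial RNA, antiviral and germ cell groups have wide bars that cross this line.

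A list of RNA helicases that carry other names was counted beside them. Of 23 such genes 16 had a start (69.6%, 49.1 to 84.4), an interval that overlaps that of the DDX and DHX genes. The translation factors EIF4A1 and EIF4A2 were called at the annotated base itself, and EIF4A3 of the exon junction complex 15 bp outside the gene. SNRNP200 and AQR of the spliceosome, UPF1 of nonsense-mediated decay, MTREX of the nuclear exosome, SUPV3L1, ASCC3, DICER1, YTHDC2, IGHMBP2, ZNFX1, HELZ2, MOV10L1 and the viral RNA sensor IFIH1 were also called. The 7 without a start were DQX1, HELZ, MOV10, RIGI, SKIC2, TDRD9 and TDRD12. Of these, MOV10 and HELZ each held 1 call inside the gene.

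Called starts of helicase genes were tightly placed. The median of the nearest start was 4 bp inside the outer end (quartiles 0 and 24, range -47 to 266, n = 41), and the 95% interval of the median from order statistics was 1 to 20. For all protein-coding genes with a start the median was also 4 bp (quartiles -1 and 32). Of the 41 genes, 20 had the call within 10 bp of the end (48.8%, 34.3 to 63.5), against 45.9% of protein-coding genes. Within 50 bp lay 39 of 41 (95.1%, 83.9 to 98.7), against 77.6%. The exceptions were DDX5 and DDX3X. The start of DDX5 at 64506627 of chromosome 17 was 11 bp inside an annotated start of a shorter transcript, while that of DDX3X lay 266 bp from the nearest annotated start.

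The called base was often followed by an A. For 40 calls of helicase genes that lay within 200 bp upstream or 40 bp downstream of an annotated start, the called base was C in 20, G in 10, A in 8 and T in 2, and the next base was A in 25 (62.5%). Over 6533 such calls of protein-coding genes the called base was C in 51.6% and T in 2.39%, and the next base was A in 51.9%. A pyrimidine at the called base with a purine after it, the usual order at an initiator, held for 20 of the 40 helicase calls and for 47.4% overall. A pyrimidine before the call with a purine at it held for 13 of 40 and for 30.5%. Of all helicase starts 7 lay 1 base outside the annotated end, 5 at it and 3 a base inside, and among protein-coding genes 1387, 797 and 224 did. Whether the deposited positions are shifted by a base was not tested.

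A start was counted as divergent when a call at most 300 bp upstream of it ran the other way. This held for 21 of 41 genes (51.2%, 36.5 to 65.7), against 53.4% of protein-coding genes with a start. Partners lay 47 to 269 bp from the start nearest the gene end, with a median of 137 bp (quartiles 87 and 163), against 153 bp (quartiles 110 and 210) for the 4159 protein-coding genes whose start nearest the end had a partner. In 9 of the 38 called genes with a known strand, no call of the opposite strand was listed in the gene or within 1000 bp of it (23.7%, 13.0 to 39.2), against 21.4% of protein-coding genes called at the 5' end. These were DDX20, DDX41, DDX47, DDX60L, DHX8, DHX9, DHX34, DHX37 and DHX57.

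The partner lay at the end of another protein-coding gene, pointing into it, in 6 of the 21 cases, and for all protein-coding genes this share was 29.3%. DDX28 and DUS2, a tRNA-modifying enzyme, started 51 bp apart at 68023232 and 68023283, in the promoter printed above. On chromosome 9, DDX31 and GTF3C4, a subunit of the RNA polymerase III factor TFIIIC, also started 51 bp apart, at 132669984 and 132670035, with the GTF3C4 call at its annotated base. DDX51 and NOC4L, both of ribosome assembly, started 137 bp apart, at 132144320 and 132144457 of chromosome 12, with the NOC4L call at the annotated base and the DDX51 call 1 base outside. DDX5 started 145 bp from the call of the centrosomal protein gene CEP95 at 64506772. DDX27, at 49219369 of chromosome 20, started 162 bp from the call of STAU1 at 49219207, whose protein binds double-stranded RNA. DDX54, at 113185472 of chromosome 12, lay 87 bp from a call at 113185559 that was 162 bp outside RITA1, the only partner of the 6 more than 100 bp from the end of its gene.

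In 3 further genes the partner lay at a long noncoding RNA gene: DDX11 at 31073860 of chromosome 12 with DDX11-AS1 (72 bp), DDX19A with DDX19A-DT (119 bp) and DDX1 at 15591881 of chromosome 2 with LOC124905975 (163 bp). In the other 12 the partner was at no annotated gene end, namely DHX30 (47 bp), DDX55 (65 bp), DDX6 and DDX21 (94 bp each), DHX36 (115 bp), DDX56 (144 bp), DHX40 (159 bp), DDX46 (164 bp), DHX15 (180 bp), DHX38 (239 bp), DDX23 (259 bp) and DHX35 (269 bp). Over all protein-coding genes 54.7% of partnered starts were of this kind. Of the 4383 protein-coding genes with a partnered start, 701 had the partner at a gene of a kind other than protein-coding. That class includes the long noncoding RNA genes.

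**Figure D3:**
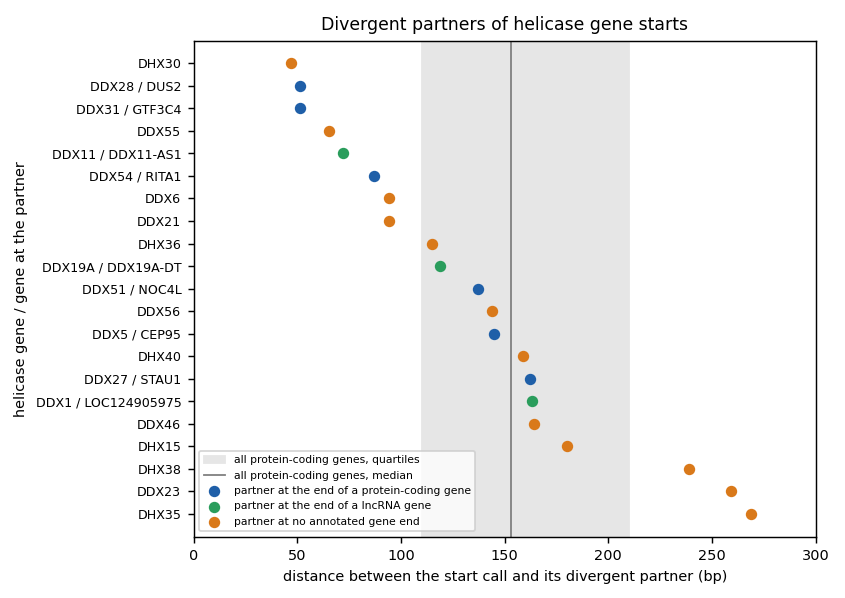
Distance in bp between the start call of 21 helicase genes and its divergent partner, coloured by what is annotated at the partner; the grey band and line are the quartiles (110 and 210 bp) and the median (153 bp) of the 4159 protein-coding genes whose start nearest the end had a partner. Values run from 47 bp in DHX30 to 269 bp in DHX35, and 8 genes lie to the left of the band.

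Some neighbours started just beyond 300 bp. DHX29 lay head to head with MTREX, the helicase of the nuclear exosome, whose call at 55308024 of chromosome 5 was 330 bp outside the end of DHX29 and 35 bp inside MTREX. DDX49 lay head to head with COPE, a subunit of the COPI vesicle coat, whose call was 330 bp outside the end of DDX49 and 2 bp inside COPE. Calls of neighbouring genes were also present where the helicase gene itself had none. At DDX42 the call of CCDC47 lay at 63773598 of chromosome 17, 202 bp outside the end of DDX42 and 1 base outside CCDC47. At the outer end of DDX19B the call of AARS1, the alanyl-tRNA synthetase gene, lay 240 bp away.

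Antisense calls just downstream of a start were less common. A convergent call within 300 bp stood at 6 of 41 helicase starts (14.6%, 6.88 to 28.4), against 11.6% of protein-coding genes with a start. These were DDX1 at 88 bp, DDX11 at 225 bp, DDX17 at 251 bp, DDX59 at 265 bp, DDX31 at 290 bp and DDX43 at 297 bp. The call in DDX59 was also 118 bp inside the noncoding gene DDX59-AS1. In DDX11 the downstream reverse call at 31074085 was itself the divergent partner of a further forward start at 31074245, so that forward and reverse calls alternated along the first part of the gene.

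More than 1 start call within 500 bp of the ends was found in 3 of 41 helicase genes (7.32%, 2.52 to 19.4), against 15.4% of protein-coding genes with a start. The count follows the window, with 0 of 39 at 200 bp (0.938% of protein-coding genes) and 10 of 41 at 1000 bp (24.4%, against 26.1%), and it was 1 of 36 without genes that have near-identical copies. DDX11 had calls at its end and 385 bp inside, the latter 20 bases upstream of another annotated start. DDX39A had the starts 42 and 341 bp inside, at 14419341 and 14419042 of chromosome 19, the former exactly at an annotated start. DDX41 had a further reverse call at 177517460 of chromosome 5, beside the start at 177516962, and it lay just within the window of 500 bp.

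A call inside the gene and more than 500 bp from both ends was found in 9 of 53 genes (17.0%, 9.20 to 29.2), against 20.7% of protein-coding genes. Of the 41 genes with a start 7 had one (17.1%, 8.53 to 31.3), against 28.9% of protein-coding genes with a start, a share within that interval. This count also follows the window: with 200 bp it was 19 of 53 (35.8%), above the 27.2% of protein-coding genes, and with 1000 bp 4 of 53 (7.55%), below their 14.7%. With 500 bp there were 12 such calls, or 0.551 per 100 kb of gene, against 0.667 for all protein-coding genes and 0.991 for those with a start. The median gene length was 30.9 kb for helicase genes and 24.5 kb for all protein-coding genes. Of the 12 calls 5 were on the strand of the gene and 7 on the opposite strand. Neither this split nor the count at annotated inner starts below is given for all protein-coding genes. Both therefore only describe these calls.

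Of the 5 sense calls, 4 lay at annotated inner starts. The call lay 1 base from another annotated start, namely DDX3X (853 bp into the gene, at 41334161), DDX5 (576 bp, at 64506290), DDX6 (579 bp, at 118791165) and DDX19B (at 70299187). The inner start of DDX5 was preceded by the letters TATAAA, which begin the 30 bases printed above, a spacing typical of a TATA box. The inner start of DDX6 had its own divergent partner 89 bp upstream, like the outer start of that gene, and DDX6 held 6 calls in all, the most among helicase genes.

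The remaining sense call belonged to DHX30, where a divergent pair at 47824869 and 47825014, 145 bp apart, lay 21731 and 21876 bp into the gene and at no annotated start of the gene in the table used. Of the antisense calls, that in DHX38 at 72094376 lay 2 bp inside the end of TXNL4B, a gene for a protein of the spliceosome, and pointed into it, so that the starts of both genes faced each other 529 bp into DHX38. The others were in DHX36 (502 bp from the end), DHX32 (624 bp), DDX6 (820 and 1397 bp) and DDX60 (7542 bp).

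Of the 12 genes without a start, 4 held or adjoined calls of another kind (DDX19B, DDX42, DDX50 and DDX60) and 8 had no call of either strand in the gene or within 500 bp. On hg38, DDX4 lies at chr5:55738061-55817157, DDX25 at chr11:125903328-125928843, DDX53 at chrX:22999960-23003589 and DHX58 at chr17:42101411-42112714. DDX24 lies at chr14:94048287-94081202, DDX52 at chr17:37609739-37643446, DDX39B at chr6:31530226-31542003 and DHX16 at chr6:30653127-30673006. The 4 with other calls are DDX19B at chr16:70289767-70335305, DDX42 at chr17:63773800-63819317, DDX50 at chr10:68901315-68946847 and DDX60 at chr4:168216294-168325979. For DHX16 and DDX39B the whole surroundings were free of calls. Between 28490104 and 33571322 of chromosome 6, a stretch of 5.08 Mb that holds the major histocompatibility complex and 172 protein-coding genes, no call was listed, and the related helicase gene SKIC2 lay in the same stretch. DDX52 lay in a call-free stretch of 3.27 Mb with 59 protein-coding genes on chromosome 17 (35587798 to 38853537), and DDX24 in 1 of 2.36 Mb with 29 genes on chromosome 14 (92794334 to 95156800).

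Stretches with as many genes were few in the call set. Of 633 stretches of at least 1 Mb between neighbouring calls, 46 held 10 or more protein-coding genes, and by number of genes those of DHX16 and DDX39B ranked 1, that of DDX52 ranked 3 and that of DDX24 ranked 8. The lack of a call for these 4 genes thus came with a lack of calls at all their neighbours, and its cause was not tested. DDX53 lay in a stretch of 1.72 Mb with 4 protein-coding genes, and DDX4, DDX25 and DHX58 in stretches of 282, 175 and 101 kb with 2, 3 and 3 genes.

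**Figure D4:**
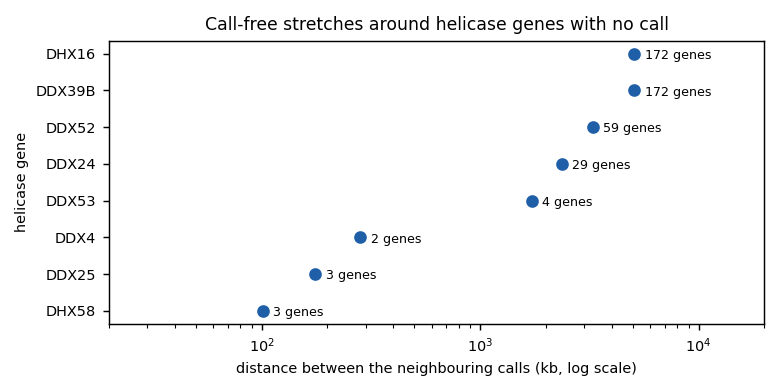
Distance between the neighbouring calls on either side of the 8 helicase genes with no call, in kb on a log scale, with the number of protein-coding genes inside each stretch. DHX16 and DDX39B share the stretch of 5.08 Mb with 172 genes, DDX52 and DDX24 follow with 59 and 29 genes, and DDX4, DDX25 and DHX58 lie in stretches below 300 kb.

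Several helicase genes have a near-identical copy, and how reads that match both copies were treated is not stated in the labels, so calls at these genes are uncertain. In the paralog pairs DDX19A and DDX19B, DDX39A and DDX39B, DDX60 and DDX60L, and DDX21 and DDX50 (the last chosen after its calls were seen), 1 member of each had a start at its outer end and the other had not. In DDX5 and DDX17 both had one. Of all helicase genes 77.4% had a start, and the number of pairs with 1 called member was not compared with that in other gene pairs. DDX39B lay in the call-free stretch of chromosome 6, where none of the 172 protein-coding genes had a start. Whether the copies matter for these pairs was not tested. DDX3X has a close copy in DDX3Y and DDX11 in pseudogenes, and both were called.

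Short motifs were counted in the promoters of helicase genes. Promoters were windows of 300 bases, from 250 before to 50 after the annotated start nearest the outer 5' end, for 48 helicase genes and 15813 protein-coding genes, and each motif was searched on both strands. The median GC content was 63.0% for the 38 helicase genes with a start and 55.2% for the 10 without, against 65.3% and 59.3% for protein-coding genes with and without one. Among those without, GC ran from 33.3% in DDX4 to 62.0% in DDX24. The TATA box letters TATAAA were present in 2 of 48 helicase promoters (4.17%), DDX39B and DHX32, against 9.75% of protein-coding promoters. Among promoters with a start they were present in 1 of 38 (2.63%), DHX32, against 5.10%. The window used for DHX32 lay away from its called start. The ETS core GGAAG was present in 42 of 48 helicase promoters (87.5%) and in 33 of the 38 with a start (86.8%), against 73.9% of all and 78.2% of those with a start. DHX30 and DDX55, printed above, held it between their divergent calls.

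The CCAAT box letters CCAAT were found in 22 of 48 (45.8%, against 36.4% of all), and in 17 of the 38 with a start (44.7%, against 39.4%). The SP site letters GGGCGG were found in 27 of 48 (56.2%, against 58.3% of all), and in 23 of the 38 with a start (60.5%, against 73.3%). The NRF1 core GCATGCGC was found in 5 of 48 (10.4%, against 4.27% of all promoters), namely DDX10, DDX11, DDX27, DDX41 and DHX9. Among promoters with a start it was found in 5 of 38 (13.2%, against 7.35%). In DDX11 the core stands in the stretch between the divergent calls. In DDX41 the called base lies inside this core, as the fourth letter of GCGCATGC in the printed sequence. The YY1 core AAGATGGCG was found in DDX23, DDX47 and DDX53 (3 of 48, 6.25%, against 2.69% of all), and among promoters with a start in 5.26% of helicase genes and 5.35% of protein-coding genes. The GATA core AGATAA was found in DDX39B, DDX60L and DHX36 (3 of 48, 6.25%, against 7.63% of all), and among promoters with a start in 5.26%, against 4.36%. In DDX60L it stands upstream of the call in the printed sequence.

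The letters TGACGTCA, the site of CREB and ATF factors, were searched after they were seen in the printed promoters of DDX28, DDX51 and DDX19A. They were present in 5 of 48 helicase promoters (10.4%), those 3 with DDX10 and DHX36, against 2.56% of all promoters. Among promoters with a start they were present in 5 of 38 helicase genes (13.2%), against 3.86% of protein-coding genes. Because the search was prompted by these sequences, the count of 5 is a description only. In DDX28 the site lies just before the called base, and in DDX51 it lies nearer the NOC4L call. A match of letters does not show that a factor binds there.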

How the data were processed

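PRO-cap libraries of 2 replicates of wild-type HUDEP-2 cells were made from nuclear RNA, per the labels. The build was hg38, with BWA 0.7.16a, SAMtools 1.17, Picard and deepTools 3.5.4 among the tools that the submitters' processing notes list. Neither the settings of the caller nor how the replicates were combined is stated there. The authors deposited other values than counts, namely 1-based positions of calls, and a score that is 0 for all 26395 calls in the deposited lists.

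Calls on chromosomes 1 to 22 and X were kept, and 63 others left out. Genes and outer ends came from the RefSeq gene table of GRCh38.p14, after 679 entries on other scaffolds were removed, and strands, inner starts and sequences from a RefSeq promoter table. Shares carry 95% Wilson intervals, and no test was made, since no value per replicate was used. Python 3.11.15, numpy 2.4.6 and pandas 2.3.3 were used. The geometry was tested on simulated data. Members, role lists, the marker and helicase lists and the tests were chosen with earlier results of these data known, and 3 genes of the marker and helicase lists are not reported here. By the naming rule, every member is accounted for, and positions are given for members without a start, with a partner at another gene, with several starts, with a start over 50 bp from the end, and for the 5 with most internal calls. The planned count of protein motifs was not run.

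Alternatives were windows of 200 and 1000 bp, partner limits of 150 and 500 bp, the annotated 5' end only, lists without near-identical copies or the chromosome 6 stretch, positions 1 base lower, and, added after the data were seen, all annotated starts, any call and positions 1 base downstream.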

Additional observations from a re-analysis of the deposited data

How the results depend on the processing

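The number of helicase genes with a start was 39 with a window of 200 bp and 41 with 1000 bp, and ranged from 36 of 45 without near-identical copies to 45 of 53 counting any call, always within 1.5 times the reported 41. Protein-coding genes with a start were 38.2% and 44.1% under the same windows. Genes with an internal call were 19 with a window of 200 bp and 4 with 1000 bp, and genes with several start calls 0 and 10. The window sets which calls count as internal and which as starts. Calls that belonged to neither class at 500 bp, such as antisense calls near the end, can enter a class at another window. Without near-identical copies 1 gene had several start calls. Genes with a divergent partner were 13 of 41 (31.7%) with a limit of 150 bp and 27 of 41 (65.9%) with 500 bp. The shares of all protein-coding genes at these limits are not given here, so these counts cannot be compared with them. The median position stayed between 4 and 5 bp inside the gene. Leaving out a replicate was not run, since the call set names none. Depth is unknown and limits every statement on genes without a call.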
